A study of Bos taurus with 31 samples.

Results

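The liver transcriptome was compared between 2 feeding groups of lactating German Holstein cows on control rations, that is rations without the glyphosate-contaminated feed of the study. The control rations were not free of glyphosate residues, and the cows took up a low background amount. CONHC denotes 8 cows on a control ration with 60% concentrate on a dry matter basis, and CONLC denotes 8 cows on a control ration with 30% concentrate, the remainder being maize silage, grass silage and straw. All columns labelled CONHC or CONLC were used, which is 16 of the 31 cows of the series, and the description covers every gene with at least 20 reads summed over them, 15033 of 24616 genes in the count table. No read was assigned to 6189 of the remaining genes and 1 to 19 reads to the other 3394, and 1293 of the tested genes carried no gene symbol. Each library came from the puncture biopsy of 1 cow in week 16 and held polyadenylated RNA. The rations were offered ad libitum as total mixed rations, so that a CONHC cow differed from a CONLC cow in silage share as well as in concentrate share, and cow age was not given in the labels. In the 15 remaining cows, 8 GLYHC and 7 GLYLC animals, the same concentrate contrast was made with feed that contained glyphosate residues, and these cows serve here only as a second set of animals for the same contrast.

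Concentrate supplies rapidly fermented starch and protein. Ruminal fermentation turns it into volatile fatty acids, and the ruminant liver makes glucose from propionate because little glucose is absorbed from the gut. Hepatocytes also take up iron, make most plasma proteins including complement, clotting and acute phase proteins, detoxify feed compounds through cytochrome P450 and conjugating enzymes, and release insulin-like growth factor 1 (IGF1) in response to growth hormone. A biopsy holds hepatocytes together with Kupffer cells, endothelium, stellate cells and blood, so that a lower level in bulk tissue may stand for fewer cells of a type or for less RNA per cell, which cannot be told apart here.

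The libraries held 11675775 to 29881860 reads assigned to genes in CONHC, with a median of 15639368, and 12594557 to 25624554 in CONLC, with a median of 22532846. The mean log2 total was lower by 0.26 in CONHC, which did not pass a two-sided exact permutation test (p = 0.192). Levels are therefore given as normalized counts, that is counts divided by the trimmed-mean-of-M-values library size and rescaled to the geometric mean library. All 9 hepatocyte markers were measured, and their summed level lay between 2946000 and 3948000 normalized counts in CONHC and between 2319000 and 3826000 in CONLC. Markers of intestinal epithelium and epidermis were mostly untested for lack of reads (2 of 9 and 2 of 6 tested).

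A set of 13 skeletal muscle genes, collected after the values had been seen, was not evenly spread over the biopsies. Its sum was 47470 normalized counts in CONHC cow 123, 40990 in CONLC cow 103 and 93980 in CONLC cow 166, against 25 to 10890 in the other 13 cows. CONLC cow 103 also had 41530 normalized counts over the stellate cell, fibroblast and smooth muscle markers, against 9664 in the next CONLC cow. The contrast was therefore also computed without these 3 cows. Where a DESeq2 call ended in that refit, its adjusted p is given in the same paragraph. The refit holds fewer cows, so that a call may end there with little change in the fold change. Leaving the 3 cows out did not balance the muscle genes. The median log2 difference of the 13 genes was -0.77 in all 16 cows, where 0 had an unadjusted p under 0.05, and 2.23 without the 3 cows, where 9 of the 13 were higher in CONHC at that p. Of the 10 stellate cell, fibroblast and smooth muscle markers, 4 were lower in CONHC at an unadjusted p under 0.05 in all cows and 0 without the 3 cows. The part of muscle and connective tissue reads in the results below was not tested beyond these refits.

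**Figure D1:**
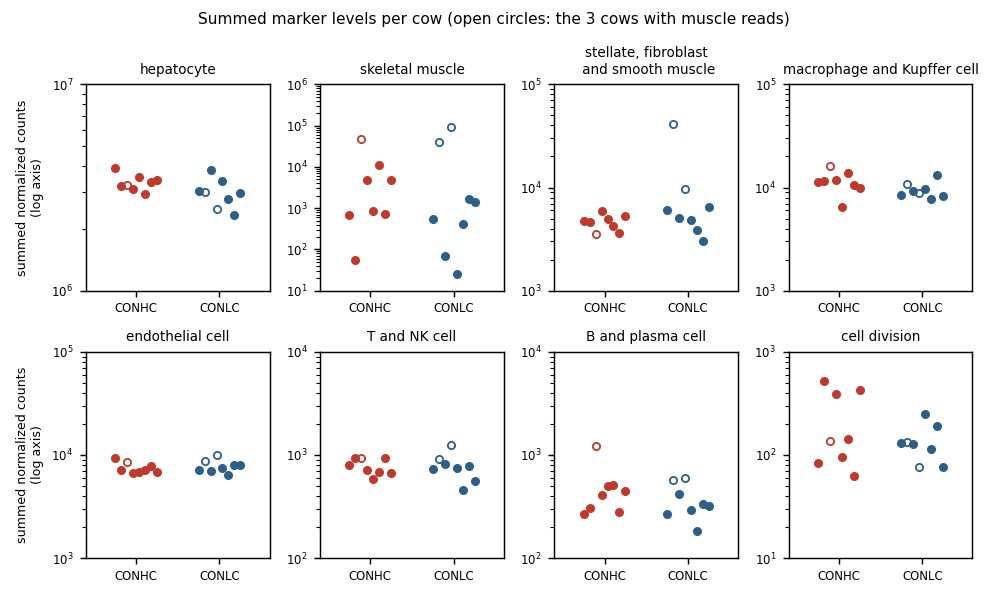
Summed normalized counts of 8 marker lists per cow (log axis), with the 8 CONHC cows in red and the 8 CONLC cows in blue. Open circles are CONHC cow 123 and CONLC cows 103 and 166, whose skeletal muscle sums of 47470, 40990 and 93980 lie above the 10890 of the next cow, while the hepatocyte sums of the groups overlap.

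Across all genes the differences were small. Of 15033 genes, 0 (0%) were called by edgeR (quasi-likelihood F test, Benjamini-Hochberg adjusted p under 0.1), and the smallest adjusted p was 0.112. At an unadjusted p under 0.05 there were 1086 genes (7.22%), of which 529 (3.52%) were higher and 557 (3.71%) lower in CONHC, and 47.5% of all genes were higher in CONHC at any p. The median log2 fold change over all genes was -0.01 and the median absolute log2 fold change 0.11. DESeq2 on the same cows gave 81 genes at an adjusted p under 0.1, 48 higher and 33 lower in CONHC, which is 1.91% of the 4249 genes that its filter left with an adjusted p. These 81 genes all had an unadjusted edgeR p under 0.05, and their absolute log2 fold changes lay between 0.16 and 1.14 with a median of 0.43. Without that filter DESeq2 called 67 genes, and 39 of the 81 were called again. Without the 3 muscle-read cows, 40 of the 81 were again among the 96 genes called by DESeq2, and edgeR called 3. Below, a gene is said to be called only where a test named beside it called it, and all other differences are given as values. Counts of list members at an unadjusted p under 0.05 are given beside the shares of 3.52% higher and 3.71% lower over all genes. The lists were chosen with earlier results of these data known and hold genes that the study had reported from these cows. Part of any excess over these shares may therefore be set by that choice.

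**Figure D2:**
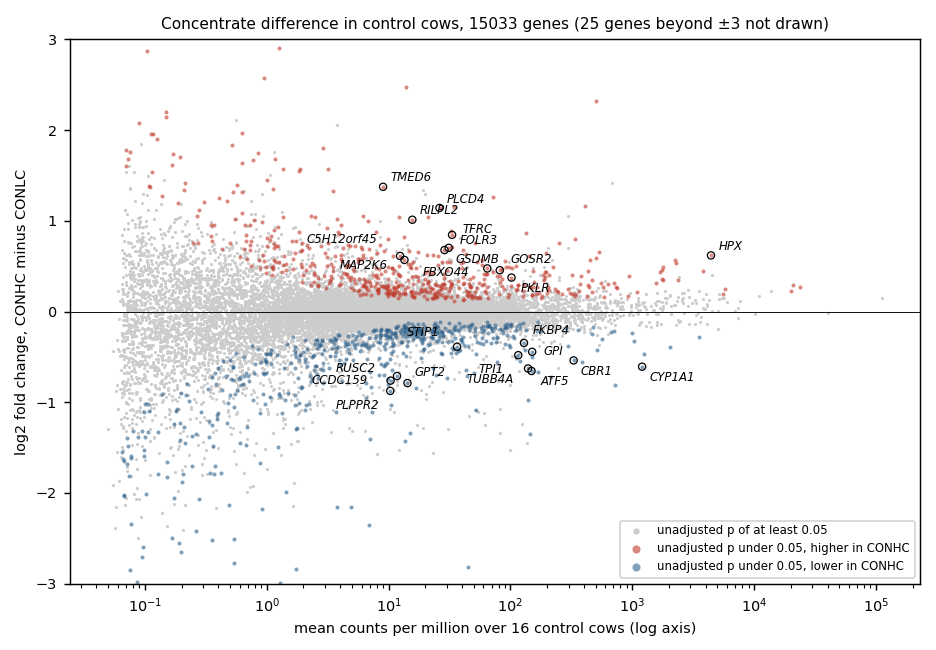
Log2 fold change of CONHC minus CONLC against the mean CPM (counts scaled to a common library size) over the 16 control cows (log axis) for 15033 genes, 25 of which lie beyond 3 and are not drawn. Red and blue points are the 529 and 557 genes with an unadjusted edgeR p under 0.05, and circles mark the 12 genes per direction with the smallest p, which lie between -0.88 and 1.38.

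The 24 genes that stood out most, 12 per direction, were those with the smallest p among genes with a symbol and a mean of at least 5 CPM. Their adjusted edgeR p ran from 0.159 to 0.339, and DESeq2 called 16 of them and gave the other 8 no adjusted p. None of the 24 changed sign, and the unadjusted p stayed at or below 0.00269, when any single cow was left out. As they were picked by their p in these same cows, this was largely set by the choice. The groups did not overlap at all for 3 of the 15033 genes (0.02%), among them TFRC and GOSR2.

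Genes of iron uptake and heme handling lay on both sides. TFRC, the transferrin receptor through which cells import iron, had 516, 687 and 1060 normalized counts in CONHC (lowest, median and highest cow) and 332, 445 and 509 in CONLC. Every CONHC cow lay above every CONLC cow. Its log2 fold change was 0.85 ± 0.16 (SE), with an adjusted edgeR p of 0.159 and an adjusted DESeq2 p of 0.000775, and it was 0.93 without the 3 muscle-read cows. HPX encodes hemopexin, the plasma protein that binds free heme. Its level was 77270, 94590 and 125200 normalized counts in CONHC and 46380, 64350 and 89840 in CONLC, 4 CONHC cows lying above the whole CONLC range, and the log2 fold change was 0.62 ± 0.14 (SE) (adjusted p 0.188 in edgeR and 0.00431 in DESeq2). In the opposite direction, BLVRB, a biliverdin reductase of heme breakdown, had 1292, 1646 and 2101 normalized counts in CONHC against 1911, 2385 and 3084 in CONLC, a log2 fold change of -0.50 ± 0.12 (SE) and an adjusted DESeq2 p of 0.00992. ABCB6, a porphyrin transporter, was likewise lower at 397, 588 and 659 against 647, 718 and 974, with a log2 fold change of -0.45 ± 0.11 (SE) and an adjusted DESeq2 p of 0.0201. No CONHC cow lay above the CONLC median for either of these genes.

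Of 31 measured heme synthesis, heme breakdown and iron genes, 7 were higher and 3 lower in CONHC at an unadjusted p under 0.05. Their median log2 fold change was 0.10, and 3.52% of all genes were higher and 3.71% lower at that p. Without the 3 muscle-read cows 5 of the list were higher and 4 lower, and likewise without CONHC cow 144. HPX, HP and the ceruloplasmin gene CP are counted in this list and in the acute phase list below. The ferrochelatase gene FECH, which inserts iron into the porphyrin ring, had a log2 fold change of 0.30 and was called by DESeq2, while the hepcidin gene HAMP had -0.38 ± 0.27 (SE) with an unadjusted p of 0.176. FECH and HAMP were chosen after their values were seen. The haptoglobin gene HP, an acute phase protein that binds free hemoglobin, was chosen in the same way because its difference was the widest in the list. It had 80270 normalized counts in CONHC cow 144, 915.6 to 15270 in the 7 other CONHC cows and 301, 995 and 12500 (lowest, median and highest) in CONLC. Of the 8 CONHC cows 6 lay inside the CONLC range. The log2 fold change of 2.33 ± 0.95 (SE) had an unadjusted p of 0.0248, and without cow 144 it was 0.98 with an unadjusted p of 0.223.

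Among genes of membrane traffic and signalling, TMED6, a p24 family protein of the early secretory pathway, showed the widest difference of the 24. Its level was 139.5, 236 and 359 normalized counts in CONHC and 51.2, 66.4 and 190 in CONLC, and 7 of 8 CONHC cows exceeded every CONLC cow. The log2 fold change was 1.38 ± 0.25 (SE) with an adjusted edgeR p of 0.159, and limma-voom called it. GOSR2, a Golgi SNARE protein, had 1492, 1705 and 2139 in CONHC and 1000, 1318 and 1440 in CONLC without overlap, a log2 fold change of 0.46 ± 0.09 (SE) and an adjusted DESeq2 p of 0.00221. The phospholipase C gene PLCD4 was at 387, 566 and 1187 against 192, 284 and 444 normalized counts, with a log2 fold change of 1.14 ± 0.24 (SE) and an adjusted DESeq2 p of 0.00221. RILPL2, which takes part in vesicle transport to the primary cilium, was at 218, 364 and 658 against 145, 161 and 344, with a log2 fold change of 1.01 ± 0.22 (SE). MAP2K6, a kinase upstream of p38, was at 214, 289 and 363 against 154, 185 and 291, with a log2 fold change of 0.57 ± 0.13 (SE). For all of these genes the 8 CONHC cows lay above the CONLC median, and for RILPL2 the highest CONLC value came from cow 145 alone, the next being 206. Also higher in CONHC were FBXO44, a ubiquitin ligase adaptor (log2 fold change 0.48 ± 0.12 (SE), adjusted DESeq2 p 0.0182), the gasdermin GSDMB (0.68 ± 0.17 (SE), 0.0208), the folate receptor gene FOLR3 (0.70 ± 0.18 (SE), 0.0219) and C5H12orf45 (0.61 ± 0.15 (SE)). The calls of FBXO44 and FOLR3 ended without the 3 muscle-read cows (adjusted DESeq2 p 0.240 and 0.117), where their log2 fold changes were 0.43 and 0.70.

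**Figure D3:**
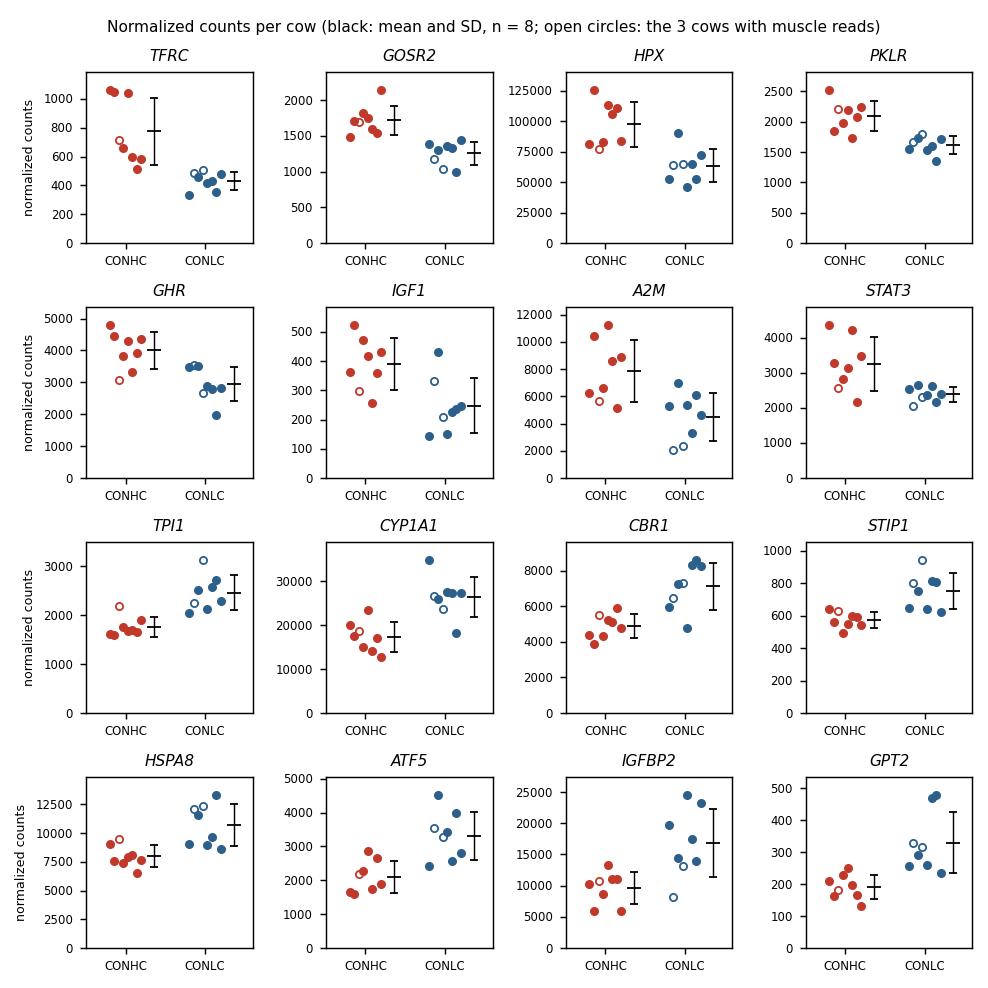
Normalized counts of 16 genes in each of the 16 control cows, CONHC in red and CONLC in blue, with the mean and SD of the 8 cows in black and the 3 muscle-read cows as open circles; each axis starts at 0. TFRC and GOSR2 show no overlap between the groups (515.6 to 1060 against 331.9 to 508.6 for TFRC), and the ranges overlap in the other 14 panels.

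Glycolytic enzymes did not all lie on the same side. TPI1, the triosephosphate isomerase, had 1591, 1689 and 2187 normalized counts in CONHC and 2049, 2414 and 3127 in CONLC, 7 of 8 CONHC cows being below the whole CONLC range. Its log2 fold change was -0.48 ± 0.09 (SE) (adjusted p 0.159 in edgeR and 0.000775 in DESeq2), and without the 3 muscle-read cows edgeR called it at -0.49. GPI, which interconverts glucose and fructose phosphates, had 1992, 2250 and 2760 against 2541, 3220 and 3653, a log2 fold change of -0.44 ± 0.09 (SE) and an adjusted DESeq2 p of 0.00326. TKT, the transketolase of the pentose phosphate pathway, had 2388, 2988 and 3446 against 2639, 4160 and 7870, a log2 fold change of -0.72 ± 0.19 (SE) and an adjusted DESeq2 p of 0.0208, the CONLC cows being spread far more widely than the CONHC cows. PKLR, the liver pyruvate kinase at the end of glycolysis, went the other way. It had 1729, 2136 and 2517 normalized counts in CONHC and 1345, 1635 and 1803 in CONLC, a log2 fold change of 0.37 ± 0.08 (SE) and an adjusted DESeq2 p of 0.00324.

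Of the 25 glycolysis and pentose phosphate enzymes, 4 were lower and 1 higher in CONHC at an unadjusted p under 0.05, and the median log2 fold change was -0.11. In the refit without muscle-read cows 4 were lower and 2 higher and the median was -0.05, and it was -0.03 without CONLC cow 166 alone. The 14 genes of gluconeogenesis and propionate entry held 0 at that p in either direction, with log2 fold changes between -0.33 and 0.15. Pyruvate carboxylase PC had the largest difference, with 2522, 3557 and 5158 normalized counts against 2765, 4223 and 7168 and a log2 fold change of -0.33 ± 0.19 (SE) (unadjusted p 0.112), which was -0.48 with an unadjusted p of 0.0254 without the 3 muscle-read cows and -0.20 without CONLC cow 60. In the first of these refits 3 of the 14 were lower at an unadjusted p under 0.05. Of the 18 citric acid cycle enzymes, SUCLG2, a succinyl-CoA ligase subunit through which propionate carbon passes, was higher in CONHC (6083, 6653 and 7068 against 5266, 5744 and 6523, log2 fold change 0.19 ± 0.06 (SE)) and was called by DESeq2 (adjusted p 0.0548), which ended without the 3 muscle-read cows (0.403). The mitochondrial isocitrate dehydrogenase IDH2 was lower at an unadjusted p of 0.0139, with a log2 fold change of -0.47 ± 0.17 (SE) that neither edgeR nor DESeq2 called.

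In nitrogen metabolism the gene with the smallest p was an aminotransferase. GPT2, the mitochondrial alanine aminotransferase that links alanine to pyruvate, had 132, 189 and 251 normalized counts in CONHC and 234, 304 and 478 in CONLC, and 7 of 8 CONHC cows lay below every CONLC cow. Its log2 fold change was -0.79 ± 0.16 (SE) with an adjusted edgeR p of 0.159, and DESeq2 without its filter on low means gave an adjusted p of 0.00457. Of the 15 urea cycle and ammonia handling genes, GOT2 was also lower (-0.17 ± 0.08, unadjusted p 0.0348) and the ornithine transcarbamylase OTC higher (0.22 ± 0.10, 0.0453), neither of them called.

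Serine and one-carbon enzymes were lower in CONHC in 13 of 18 cases, 5 of them and 0 of the higher ones at an unadjusted p under 0.05, with a median log2 fold change of -0.13. The serine synthesis enzyme PHGDH had 1307, 1733 and 2451 normalized counts in CONHC and 1843, 2516 and 3806 in CONLC, a log2 fold change of -0.55 ± 0.16 (SE) and an adjusted DESeq2 p of 0.0581. ALDH1L2, a mitochondrial folate enzyme, was at 370.3, 619 and 852 against 600.5, 958 and 1580 (log2 fold change -0.71 ± 0.20 (SE), adjusted DESeq2 p 0.0540), and AMT of the glycine cleavage system at 514, 645 and 861 against 702, 871 and 961 (-0.37 ± 0.10 (SE), 0.0504). PSPH, the last enzyme of serine synthesis, had the widest fold, -1.34 ± 0.41 (SE), with 106, 157 and 223 normalized counts against 158, 231 and 1318, and was not called. Its highest CONLC cow, cow 260 at 1318, stood well above the next at 553.4, and without it the log2 fold change was -0.74 (unadjusted p 0.0114). The calls of PHGDH and ALDH1L2 ended without the 3 muscle-read cows (adjusted DESeq2 p 0.155 and 0.246).

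Protein folding and degradation genes leaned to lower values in CONHC. Among 27 cytosolic heat shock proteins and co-chaperones, 25 were lower, 7 of them at an unadjusted p under 0.05, and 0 were higher at that p, with a median log2 fold change of -0.20 against -0.01 over all genes. HSPA8, the constitutive cytosolic HSP70, had 6491, 7797 and 9509 normalized counts in CONHC and 8598, 10620 and 13300 in CONLC, a log2 fold change of -0.42 ± 0.10 (SE) and an adjusted DESeq2 p of 0.0144. STIP1, which hands client proteins from HSP70 to HSP90, had 490.4, 577 and 639.7 against 624, 776 and 941 (-0.39 ± 0.09 (SE), adjusted DESeq2 p 0.00873). FKBP4, an HSP90 co-chaperone of steroid receptors, had 1709, 2062 and 2510 against 2337, 2603 and 2985 (-0.35 ± 0.08 (SE), adjusted DESeq2 p 0.00529). In these 3 genes no CONHC cow exceeded the CONLC median. Without the 3 muscle-read cows 9 of the 27 were lower at an unadjusted p under 0.05 and the median was -0.19.

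Differences were smaller in the chaperonins and the proteasome. The chaperonin list held 10 measured genes, including HSPA9, the mitochondrial HSP70, which is no chaperonin subunit. Of these, 9 were lower in CONHC, and 4 had an unadjusted p under 0.05, namely TCP1, CCT8, CCT5 and HSPA9. TCP1, a subunit of the actin- and tubulin-folding TRiC complex, had 897, 962 and 1065 normalized counts against 1041, 1109 and 1174, a log2 fold change of -0.18 ± 0.05 (SE) and an adjusted DESeq2 p of 0.0182. Of 34 proteasome subunits 32 were lower, 14 at that p, with a median of -0.13, and leaving out single cows took the count of 14 to between 5 (without CONHC cow 144 or CONLC cow 259) and 19 (without CONLC cow 169). PSMD2, a subunit of the regulatory particle, had 1800, 1949 and 2059 against 1980, 2162 and 2488 (-0.16 ± 0.06 (SE), adjusted DESeq2 p 0.0611), and the catalytic subunit PSMB5 had 1200, 1471 and 1578 against 1444, 1671 and 1801 (-0.20 ± 0.07 (SE), unadjusted p 0.0136). The calls of TCP1 and PSMD2 ended without the 3 muscle-read cows (adjusted DESeq2 p 0.261 and 0.124). Subunits of a complex are measured in the same libraries, so that their number does not add independent animals.

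Genes of the integrated and endoplasmic reticulum stress responses were lower in part. ATF5, a transcription factor of the amino acid and mitochondrial stress response, had 1583, 2033 and 2873 normalized counts in CONHC and 2413, 3353 and 4515 in CONLC, with 6 of 8 CONHC cows below every CONLC cow, a log2 fold change of -0.66 ± 0.15 (SE) and an adjusted DESeq2 p of 0.00570. The asparagine synthetase ASNS had 111, 147 and 219.8 against 123, 233 and 369 (-0.65 ± 0.20 (SE), unadjusted p 0.00499). Of the 20 ATF4 and ATF5 response genes, 5 were lower and 1 higher at an unadjusted p under 0.05, PHGDH and ALDH1L2 being counted in this list and in the serine list. Of the 22 endoplasmic reticulum folding genes, 4 were lower and 0 higher, and without the muscle-read cows 0 were left at that p in either direction. HSPA5, the main chaperone of the endoplasmic reticulum, is an example: its level was 1496, 2348 and 3561 normalized counts in CONHC against 1838, 3381 and 7008 in CONLC, the highest values being those of CONLC cows 166 (7008) and 103 (5375), and its log2 fold change went from -0.67 (unadjusted p 0.0225) to -0.38 (0.139) without the 3 cows.

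Xenobiotic metabolism genes lay on both sides. CYP1A1, which oxidizes planar aromatic compounds and is induced through the aryl hydrocarbon receptor, had 12850, 17300 and 23440 normalized counts in CONHC and 18130, 27000 and 34810 in CONLC, 5 CONHC cows being below the whole CONLC range, with a log2 fold change of -0.61 ± 0.13 (SE) and an adjusted DESeq2 p of 0.00291. CYP1A2 had 46000, 56130 and 79360 against 48030, 69530 and 93800 (-0.28 ± 0.13 (SE), unadjusted p 0.0385). CYP1A1 and CYP1A2 were the 2 of 6 genes of the receptor pathway at an unadjusted p under 0.05. Without the 3 muscle-read cows 1 of the 6 was lower at that p, as in the fit of all 31 cows. CYP1A2 was at -0.21 with an unadjusted edgeR p of 0.0949 without CONLC cow 145. The receptor gene AHR itself was at a log2 fold change of 0.02. Of 19 other cytochrome P450 and reductase genes 6 were higher and 0 lower at an unadjusted p under 0.05 (all genes 3.52% and 3.71%). The gene annotated as CYP3A4 had 2510, 3877 and 5072 against 2209, 2933 and 3212 (0.40 ± 0.12 (SE), adjusted DESeq2 p 0.0611), and CYP26A1, which degrades retinoic acid, had 466, 661 and 1233 against 291, 462 and 651 (0.71 ± 0.23 (SE), unadjusted p 0.00744). Without the 3 muscle-read cows 4 of the 19 were higher at that p, the median went from 0.13 to 0.04 and the call of CYP3A4 ended (adjusted DESeq2 p 0.333). Without CONHC cow 170 3 were higher at that p. Reads of the CYP3A, GSTA, GSTM and SULT families may be shared between near-identical copies, so that their gene-level values are uncertain.

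CBR1, a carbonyl reductase, had 3907, 4948 and 5886 normalized counts in CONHC and 4794, 7274 and 8587 in CONLC, no CONHC cow exceeding the CONLC median, with a log2 fold change of -0.54 ± 0.12 (SE) and an adjusted DESeq2 p of 0.00390. It belongs to a list of 22 genes with targets of NRF2, the regulator of antioxidant enzymes, carbonyl reductases, and the genes of NRF2 and KEAP1 themselves. In this list 8 genes were lower and 0 higher in CONHC at an unadjusted p under 0.05. The median was -0.23, the lowest of the 27 lists. Within CONLC, cow 260 had the highest value of 15 of the 22 genes, and without it 6 were lower and 1 higher at that p and the median was -0.14. Besides CBR1 and TKT the 8 lower genes included NQO1 at 472, 618 and 693 against 621, 798 and 1217 (-0.42 ± 0.13 (SE), adjusted DESeq2 p 0.0973) and the malic enzyme ME1 at 9.62, 16.2 and 20.2 against 16.9, 28.7 and 56.9 (-0.94 ± 0.23 (SE), unadjusted p 0.000705). In ME1 the highest CONLC cow was cow 103, 1 of the muscle-read cows. The gene for NRF2, NFE2L2, which is counted in the list, was at 0.02. The conjugation list of 29 measured genes also holds UGDH and UGP2 of UDP-sugar supply and the epoxide hydrolases EPHX1 and EPHX2. Of the 29, 3 were higher and 3 lower at that p. SULT1A1 (12860, 14100 and 16800 against 8701, 11420 and 13850, 0.31 ± 0.09 (SE)) and GSTM3 (3212, 3951 and 4587 against 2377, 3215 and 3860, 0.34 ± 0.11 (SE)) were higher, and UGDH (4605, 5414 and 7512 against 4067, 8372 and 12020, -0.55 ± 0.17 (SE)) and GSTA3 (13150, 18080 and 27920 against 19530, 25760 and 33410, -0.47 ± 0.14 (SE)) lower. Their adjusted DESeq2 p values were 0.0578, 0.0973, 0.0761 and 0.0759, and all of these calls ended without the 3 muscle-read cows (0.441, 0.403, 0.313 and 0.444).

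The lipid lists held few genes at an unadjusted p under 0.05. Of 17 lipogenesis and triglyceride genes 2 were lower at that p: ME1, and ACACA, the acetyl-CoA carboxylase that commits carbon to fatty acids, with 425, 587 and 788 normalized counts against 469.7, 915 and 1794, a log2 fold change of -0.64 ± 0.20 (SE) and an adjusted DESeq2 p of 0.0912. Fatty acid oxidation and ketogenesis held 1 of 23 genes at that p, ETFA at 0.18 ± 0.08 (SE), and the 22 cholesterol genes held 0, with FDFT1 at -0.36 ± 0.21 (SE) the largest difference. In CONHC, cow 134 had the highest value of 19 of these 22 cholesterol genes, and without it 7 were lower at that p and the median went from -0.12 to -0.21. Bile acid synthesis and transport held 1 of 19, CYP27A1, an enzyme of the alternative pathway, at 7022, 8628 and 10360 against 5304, 7197 and 9586 (0.27 ± 0.12 (SE), unadjusted p 0.0444). Among 18 apolipoprotein and lipoprotein assembly genes, APOF, which binds to low density lipoprotein and inhibits cholesteryl ester transfer, had 6121, 8571 and 12330 against 5558, 6725 and 7629, a log2 fold change of 0.44 ± 0.12 (SE) and an adjusted DESeq2 p of 0.0401. The calls of ACACA and APOF ended without the 3 muscle-read cows (adjusted DESeq2 p 0.430 and 0.269). The circadian clock list held 0 of 18 genes at an unadjusted p under 0.05, the smallest being 0.0522 for NPAS2.

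The growth hormone and IGF axis differed at several of its members. GHR, the growth hormone receptor, had 3063, 4109 and 4790 normalized counts in CONHC and 1964, 2845 and 3539 in CONLC, all CONHC cows being above the CONLC median, with a log2 fold change of 0.44 ± 0.12 (SE) and an adjusted DESeq2 p of 0.0427. IGF1, its hepatic target, had 256, 390.4 and 523 against 146, 232 and 432, a log2 fold change of 0.66 ± 0.20 (SE) and an unadjusted p of 0.00478. IGFBP2, an IGF binding protein, was at 5862, 10500 and 13390 in CONHC and 8166, 15920 and 24500 in CONLC (-0.81 ± 0.21 (SE), adjusted DESeq2 p 0.0208). GCGR, the glucagon receptor, was at 2697, 2978 and 3166 against 2984, 3472 and 3726 (-0.22 ± 0.06 (SE), adjusted DESeq2 p 0.00529). In all, 4 of 23 genes of this list were higher and 3 lower in CONHC at an unadjusted p under 0.05. The shares over all genes were 3.52% and 3.71%. Without the 3 muscle-read cows 3 of the 23 were higher and 5 lower at that p.

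Plasma defence proteins leaned to higher values in CONHC. Of 29 complement genes 27 were higher, 10 of them at an unadjusted p under 0.05, against 3.52% of all genes. At that p 0 were lower, and the median log2 fold change was 0.20. The hepatocyte markers lay on the same side, 2 of 9 being higher and 0 lower at that p, with a median log2 fold change of 0.15 and a median sum of 3308000 normalized counts in CONHC against 2990000 in CONLC, and their part in the difference was not tested. CD59, which blocks the terminal complement pore, had 5462, 5913 and 6349 normalized counts in CONHC and 4377, 5018 and 5615 in CONLC, a log2 fold change of 0.25 ± 0.07 (SE) and an adjusted DESeq2 p of 0.0116. C5 was at 28870, 34860 and 43920 against 22150, 28360 and 32360 (0.36 ± 0.11 (SE), adjusted DESeq2 p 0.0611) and C6, a component of the pore, at 16210, 19300 and 22760 against 9965, 15070 and 17760 (0.39 ± 0.11 (SE), adjusted DESeq2 p 0.0581). For these 3 genes all CONHC cows lay above the CONLC median. Without the 3 muscle-read cows 5 of the 29 were higher at that p, the median was 0.15 and the calls of C5 and C6 ended (adjusted DESeq2 p 0.188 and 0.353).

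Of 27 coagulation and fibrinolysis genes 5 were higher and 0 lower at an unadjusted p under 0.05 (all genes 3.52% and 3.71%). Without the 3 muscle-read cows 3 were higher and 1 lower. KLKB1, the plasma prekallikrein, had 2577, 3201 and 3688 normalized counts against 2137, 2489 and 2876 (0.33 ± 0.09 (SE), adjusted DESeq2 p 0.0401), and A2M, the broad protease inhibitor alpha-2-macroglobulin, had 5146, 7597 and 11230 against 2056, 4961 and 6977 (0.80 ± 0.24 (SE), adjusted DESeq2 p 0.0611). The lowest A2M values in CONLC were those of the muscle-read cows 103 and 166, and the log2 fold change was 0.63 without these. The acute phase list held 8 of 24 genes higher and 0 lower at that p, with a median of 0.29, and 6 higher and 2 lower without the muscle-read cows. The list mixes acute phase proteins with receptors and signalling genes and with ALB, TTR, AHSG and RBP4. Its median therefore does not stand for an acute phase response. ALB, TTR and AHSG are also counted among the hepatocyte markers. In the fit of all 31 cows 3 of the 24 were higher. CONHC cow 144 had the highest CONHC value of 8 of the 24 genes, CP and ITIH4 among them, and without it 6 were higher and the median was 0.21. STAT3, which carries the interleukin-6 signal to acute phase genes, was at 2171, 3199 and 4349 against 2055, 2371 and 2635 (0.45 ± 0.12 (SE), adjusted DESeq2 p 0.0415), ceruloplasmin CP at 27110, 34170 and 60010 against 21790, 26230 and 35160 (0.49 ± 0.16 (SE), unadjusted p 0.00595) and ITIH4 at 28480, 35150 and 54310 against 18550, 28360 and 34310 (0.46 ± 0.15 (SE), unadjusted p 0.00651). The calls of KLKB1, A2M and STAT3 ended without the 3 muscle-read cows (adjusted DESeq2 p 0.130, 0.155 and 0.152). Kupffer cell markers were also higher in part, 3 of 10 at an unadjusted p under 0.05 in all cows and 0 of 10 without the 3 cows, and their summed level was 6449 to 16160 normalized counts in CONHC and 7809 to 13240 in CONLC. Their part in these differences was not tested.

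Interferon-stimulated genes, which are induced by interferons and act against viruses, gave the list with the highest median, 0.30. In it 39 of 41 genes were higher in CONHC, 15 of them at an unadjusted p under 0.05, against 3.52% of all genes. At that p 0 were lower. DDX58, the RNA sensor RIG-I, had 472, 632 and 811 normalized counts in CONHC and 370.3, 441 and 598 in CONLC, a log2 fold change of 0.46 ± 0.12 (SE) and an adjusted DESeq2 p of 0.0427. UBE2L6, which conjugates the ubiquitin-like ISG15, had 986, 1260 and 1722 against 854, 966 and 1341 (0.42 ± 0.12 (SE), adjusted DESeq2 p 0.0581), and RSAD2, an antiviral enzyme, had 195, 302 and 557 against 133, 178 and 333 (0.67 ± 0.23 (SE), unadjusted p 0.00874). All CONHC cows lay above the CONLC median for these 3 genes, although the ranges overlapped. Without the 3 muscle-read cows 22 of the 41 were higher at that p, 0 were lower, and the median was 0.37. CONHC cow 41 had the highest CONHC value of 23 of the 41 genes and CONLC cow 166 the highest CONLC value of 25. Without cow 41 12 were higher and the median was 0.21, and without cow 166 24 were higher. The summed T and NK cell markers ran from 583.4 to 939.5 normalized counts in CONHC and from 459.5 to 1242 in CONLC, the B and plasma cell markers from 268.3 to 1226 and from 183.5 to 595.2, and the neutrophil markers from 148.9 to 314 and from 71.1 to 365.9. Of these 13, 8 and 6 measured markers 0 had an unadjusted p under 0.05 in all cows, and 2 neutrophil markers were higher in CONHC at that p without the 3 cows. Of 18 antigen presentation genes 3 were higher and 0 lower, among them the major histocompatibility class II gene BOLA-DRA at 2674, 4896 and 5892 against 2104, 3244 and 5787 (0.49 ± 0.18 (SE), unadjusted p 0.0163). Leaving out single cows took this count of 3 to between 1, as without CONHC cow 123, and 5, as without CONLC cow 166.

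**Figure D4:**
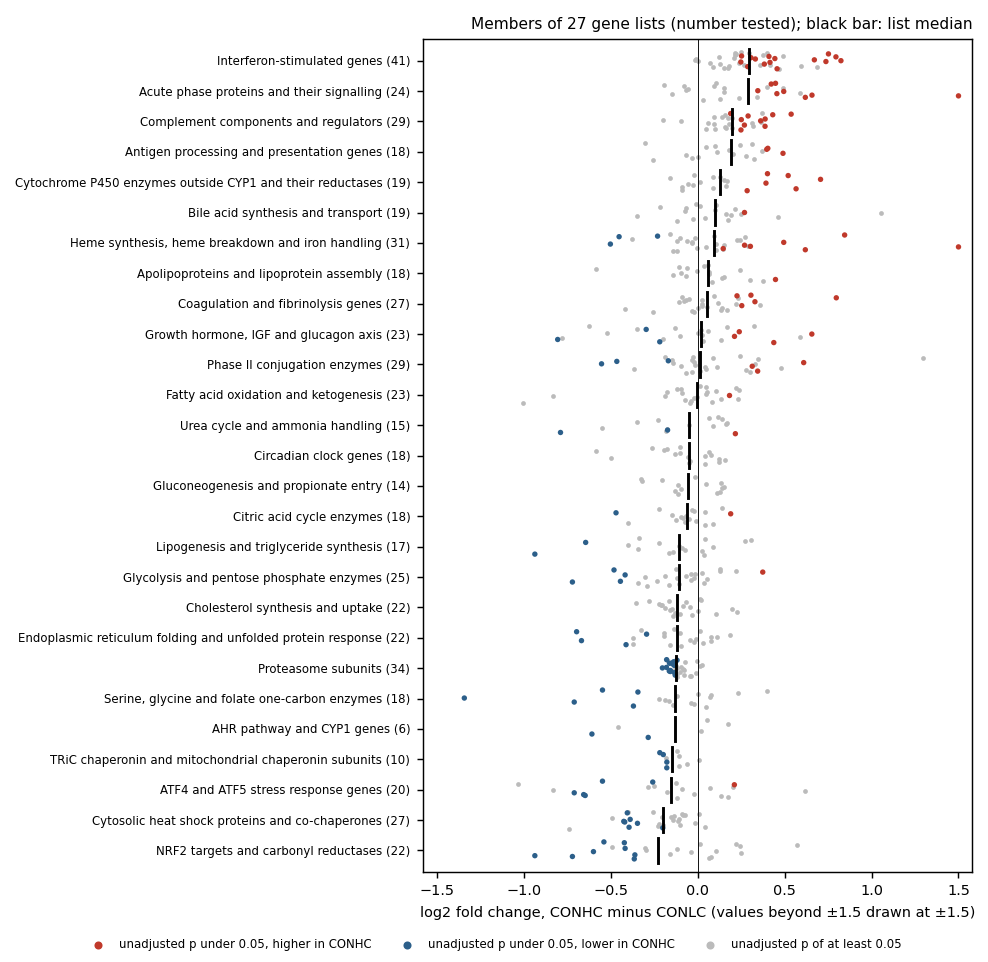
Log2 fold changes of CONHC minus CONLC for every measured member of 27 gene lists, ordered by list median (black bars), with members at an unadjusted edgeR p under 0.05 in red (higher) or blue (lower). List medians run from -0.23 for the list of NRF2 targets and carbonyl reductases to 0.30 for the interferon-stimulated genes. The 1 value beyond the axis, haptoglobin at 2.33, is drawn at its edge in the 2 lists that hold it.

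Of the remaining lower genes, PLPPR2, a membrane protein of the lipid phosphatase-related family, had 96.2, 132 and 189.5 normalized counts against 147, 226 and 372 and a log2 fold change of -0.88 ± 0.17 (SE), and edgeR called it at -1.02 without the 3 muscle-read cows. CCDC159 was at 110, 134 and 189 against 129, 249.6 and 332 (-0.76 ± 0.16 (SE)) and was called by edgeR in the same refit at -0.89. RUSC2, a Rab-binding adaptor, was at 136, 156 and 192 against 179, 248 and 376 (-0.71 ± 0.14 (SE)), and the tubulin TUBB4A at 1362, 2074 and 2409 against 1999, 3081 and 4331 (-0.63 ± 0.15 (SE), adjusted DESeq2 p 0.00877), whose call ended in that refit (0.163). TNFSF9, a ligand of the tumour necrosis factor family, lay under the 5 CPM set for named genes and was chosen after its values were seen, because it had the smallest p of all genes. Its normalized counts were 31.6, 39.1 and 46.9 in CONHC and 51.2, 70.4 and 79.0 in CONLC without overlap, its log2 fold change was -0.79 ± 0.13 (SE), and its adjusted edgeR p was 0.112.

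The same contrast in cows fed glyphosate-contaminated rations, GLYHC minus GLYLC, shared no animal with the control contrast. In the joint edgeR fit of all 31 cows 12.4% of genes had an unadjusted p under 0.05 in the GLY cows. Of the 24 named genes 19 had the same sign in the GLY cows, 9 of them at an unadjusted p under 0.05, and 1 had the opposite sign at that p. Over all genes 58.6% had the same sign and 9.09% the same sign at that p. The difference between the contrasts had an unadjusted p under 0.05 for 8 of the 24, against 4.2% of all genes. TPI1 (0.00698), PLPPR2 (0.00512) and CCDC159 (0.00258) were among these 8. The 24 genes were picked by their p in the control contrast, which is part of this difference. Their share may be raised by that choice and cannot be compared with the share over all genes. TFRC was at 0.51 (unadjusted p 0.0247), TMED6 at 0.87 (0.00420), PLCD4 at 0.98 (0.00243), PKLR at 0.29 (0.0416), STIP1 at -0.36 (0.00274) and FKBP4 at -0.22 (0.0278), all in the direction seen in control cows. TPI1 at 0.05, GPI at 0.10, ATF5 at 0.10 and HPX at 0.16 had unadjusted p values of 0.708, 0.550, 0.671 and 0.395 there. Of the 81 genes called by DESeq2 in control cows, 66 had the same sign in GLY cows, 25 at an unadjusted p under 0.05. Another 2 had the opposite sign at that p. For the difference between the contrasts 19 of the 81 had an unadjusted p under 0.05, and the same limit of the choice holds.

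The 1 gene of the 24 with the opposite sign at an unadjusted p under 0.05 in GLY cows was GPT2. On the scale of the 31-cow fit its mean was 208.8 ± 42.3 (SD) normalized counts in CONHC, 362 ± 104 in CONLC, 285.5 ± 70.1 in GLYHC and 196.2 ± 58.8 in GLYLC, with n = 8, 8, 8 and 7. The log2 fold change was -0.79 in control cows and 0.54 ± 0.19 (SE) in GLY cows (unadjusted p 0.00715). The difference between the contrasts was -1.33, with an adjusted p of 0.237 in edgeR and 0.00773 in DESeq2. Over all genes, edgeR called 0 such differences, although 631 had an unadjusted p under 0.05, and DESeq2 called GPT2 alone.

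By list, the heat shock genes had a median log2 fold change of -0.20 in control cows and -0.24 in GLY cows. In the GLY cows 14 of 27 were lower at an unadjusted p under 0.05. The proteasome subunits had -0.13 and -0.19, and 21 of 34 were lower at that p in GLY cows. Of all 15033 genes, 779 were higher and 1083 lower at that p in the GLY cows. The interferon-stimulated genes had 0.30 and 0.14, with 4 of 41 higher and 0 lower in the GLY cows. Acute phase genes had 0.29 in control cows and -0.05 in GLY cows, where 1 was higher and 4 were lower, and STAT3 was at 0.45 and -0.57 with an unadjusted p of 0.00324 for the difference. Serine and one-carbon enzymes had -0.13 and 0.14, glycolysis and pentose phosphate enzymes -0.11 and 0.10, and the list of NRF2 targets and carbonyl reductases -0.23 and -0.02. Differences between the groups of animals were tested per gene only, and not for the lists.

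**Figure D5:**
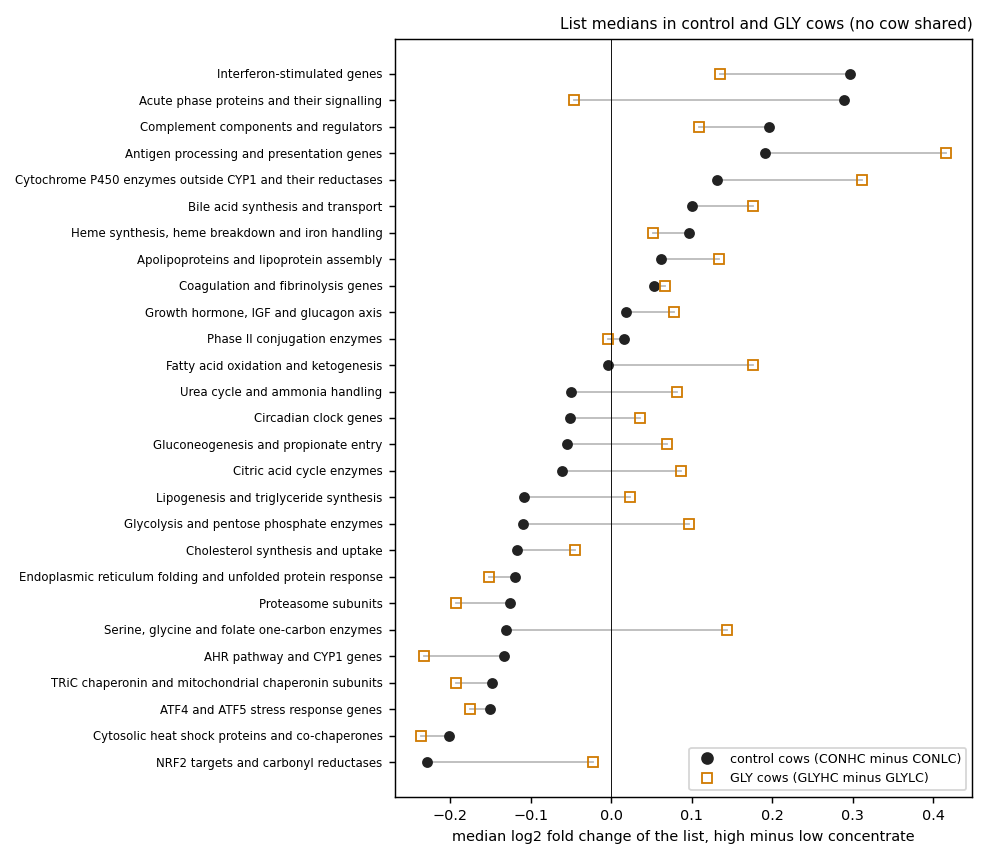
Median log2 fold change of high minus low concentrate for 27 gene lists, with filled circles for the 16 control cows and open squares for the 15 GLY cows, which are different animals. Heat shock genes lie at -0.20 and -0.24, and acute phase genes at 0.29 and -0.05.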

How the data were processed

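Liver biopsies of 31 cows were sequenced as stranded polyadenylated libraries, of which the 16 CONHC and CONLC libraries were analysed, with the 15 GLY libraries as a further contrast. Reads were trimmed by the authors in Trim Galore (minimum Phred score 20, minimum length 30 nt), aligned to UMD3.1 (Ensembl release 93) with HISAT2 2.1.0, and counted per gene in HTSeq 0.8.0, and the authors deposited raw counts. Whether counting used strand is not given in the sources used here, so that overlapping antisense genes may not be separable. Gene symbols are those paired with the identifiers in the deposited count table. A second deposited table of normalized values was not used. The lists and the members of each list were chosen with earlier results of these data known, and the 13 muscle genes after the values had been seen.

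Genes with at least 20 reads over the 16 cows were tested with edgeR 4.0.16 (trimmed-mean-of-M-values normalization, quasi-likelihood F test, R 4.3.3), and calls required both a Benjamini-Hochberg adjusted p under 0.1 and a raw p under 0.05. Named genes were, among genes with a symbol and at least 5 mean CPM, the 12 with the smallest p per direction, and in each of 27 lists up to 4 members with the smallest p. Replicate cows were compared in 56 pairs, in which the chi-square per gene was at least 24.5, so that none were counted as duplicates. DESeq2 1.42.0, limma-voom (limma 3.58.1), other size factors and filters, the 31-cow fit and leaving out each cow were alternatives. The fits were run on simulated counts with planted differences wider than those called by DESeq2 on the 16 cows. That run does not show how differences of the smaller size are recovered. Standard errors are those of the fitted log2 fold changes.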

Additional observations from a re-analysis of the deposited data

Results flagged for a closer look

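In 74 groups of 8 cows, made up of CONHC and CONLC for the 24 genes with the smallest p and 13 marker lists, the highest and lowest cow were compared with the next by Dixon's criterion, and in 5 of these groups a single cow stood apart, CONHC cow 123 in 2 of them. By chance about 1 in 20 groups would be marked if they had not been selected. The 24 genes were picked by their p, and the 13 muscle genes after the values had been seen. The number of marked groups therefore cannot be compared with that rate. For RILPL2, CONLC cow 145 had 343.6 normalized counts, the next CONLC cow 206. For the B and plasma cell markers, CONHC cow 123 had a sum of 1226, the next CONHC cow 511. For the stellate cell, fibroblast and smooth muscle markers, CONLC cow 103 had 41530, the next 9664. For the 13 skeletal muscle genes, CONHC cow 123 had 47470, the next CONHC cow 10890, and CONLC cow 166 had 93980, the next CONLC cow 40990. The difference of the concentrate log2 fold change between control and GLY cows was -1.33 for GPT2, which DESeq2 called with an adjusted p of 0.00773 and edgeR did not, with 0.237. The causes of these values were not tested.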

How the results depend on the processing

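The number of called genes was 0 in edgeR with trimmed-mean-of-M-values, relative-log-expression or upper-quartile factors, without a filter, in the robust fit, in the fit of all 31 cows and at an adjusted p under 0.05. It was 1 with a minimum count of 10 (TNFSF9) and 2 in limma-voom (TMED6 and TNFSF9). In DESeq2 it was 81 on the 16 cows, 67 without independent filtering and 26 on all 31 cows. Of the 81 genes, 39 were called again without independent filtering. Leaving out each cow in turn gave 0 to 7 calls, with 7 without CONLC cow 145 (TMED6, RILPL2, HPX and RUSC2 among them), 4 without CONLC cow 166 (MAP2K6, PLPPR2 and CCDC159 among them), 3 without CONLC cow 169 (CBR1 among them), 1 without CONLC cow 259, 1 without CONLC cow 941 and 0 for the other 11 cows. Without the 3 cows with muscle reads, a choice made after seeing the data, edgeR called 3 genes and DESeq2 called 96. The number of genes at an unadjusted p under 0.05 lay between 913 and 1244 over the 29 alternatives. DESeq2 called 1 gene (GPT2) for the difference between control and GLY cows, edgeR 0. Over the 116 named genes and 3131 recomputed values, 0 changed sign, and 104 were called where the edgeR test of the 16 cows had not. The named genes were picked by their p in these same cows, so that stable signs were largely set by the choice. No paired analysis was possible because the labels number individual cows and the groups share no number. Depth limits genes with few reads: 3394 genes with 1 to 19 reads were not tested.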
